A study of Mus musculus with 6 samples.

Results

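The genes described here encode the kinases that drive RNA polymerase II through the body of a gene, with their cyclins and partners: Cdk9, Ccnt1, Ccnt2, Cdk12, Cdk13, Ccnk, Supt5, Supt6, Hexim1 and Ell2. They were chosen by symbol for this role, with earlier results of these data known, and make up 10 of the 54532 genes listed. All 10 passed the filter of at least 10 reads over the 6 libraries. Polymerase II pauses shortly after it starts transcription, and P-TEFb, the pair of CDK9 and cyclin T, releases it by phosphorylating the polymerase tail, the SPT5 subunit of the pausing factor DSIF and the factor NELF. A 7SK RNA particle holds P-TEFb inactive through the HEXIM proteins, and the super elongation complex, with ELL2 as one of its alternative subunits, brings active P-TEFb to genes. CDK12 and CDK13 pair with cyclin K and act further along the gene, where they are known to guard long transcripts against early cleavage and polyadenylation.

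The study compared mouse 3T3 fibroblasts, an established line, after siRNA against Safb, Safb2 and Sltm together (SAFB KD, 3 libraries) with the same cells given a control siRNA (control, 3 libraries). Safb, Safb2 and Sltm encode related nuclear RNA-binding proteins, and the question was which transcripts depend on them. Per the methods, the cells were a commercial line built for site-specific integration and the siRNAs were delivered in repeated rounds. The knockdown is therefore transient, and it was read in 1 line. At the RNA level it was partial, by the target values given below, and protein was not measured in these data.

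The siRNA sequences are shown first because they define the treatment and can be looked for in the transcripts of the elongation genes. Each is the strand that matches the mRNA, 5′ to 3′, and the capitals mark the bases that pair with the seed of the guide strand.

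Safb: ggaugaccguuACCACUCa
Safb2: ugcuuuugaugACAGUAAa
Sltm: gcauuagaauaAUUCGUGa

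Each siRNA matched over its full length in annotated transcripts of its own target, and of no other gene among 13492 tested protein-coding genes, so 0 of the 10 elongation genes held a full match. The Sltm siRNA, designed for the human gene, matched 3 of 8 annotated mouse Sltm transcripts. The letters pairing with the seed alone occurred in some transcript of 3 elongation genes for the Safb siRNA (Ccnt1, Ccnt2 and Ell2), of 5 for the Safb2 siRNA (Ccnt1, Ccnt2, Cdk12, Cdk13 and Ell2) and of 0 for the Sltm siRNA. Over all these genes the shares were 22.2%, 26.8% and 7.29%. Transcripts of Hexim1 held none of the 3 seed matches.

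Total counts were 35485865 to 53441129 per SAFB KD library and 33323307 to 42595732 per control library. Values below are CPM, that is counts scaled by TMM to a common library size, with the standard deviation (SD) of 3 libraries. Log2 fold changes are SAFB KD over control with their standard error (SE), and a gene was called at an adjusted p under 0.05 by the edgeR quasi-likelihood test, adjusted over all 19452 tested genes. The targets were lower in SAFB KD without overlap: Safb averaged 46.6 CPM in SAFB KD and 93.7 CPM in control, Safb2 30.01 and 46.9 CPM, and Sltm 61.6 and 100.2 CPM. The first principal component held 82.4% of the variance and separated the groups. On the next (5.78%) control 3 lay at -11.1 and control 1 at 8.74, so results are also given where 1 library decides them. Of 8 fibroblast markers, 6 were called lower in SAFB KD and 0 higher, and their summed level was 17310 to 17770 CPM in SAFB KD and 18470 to 20380 CPM in control. Of 10 markers of other cell types, Epcam, Krt18, Adipoq and Myod1 were at 0 in every library, and the sum was 13.2 to 13.8 CPM in SAFB KD and 12.1 to 13.4 CPM in control. Of the 5 that were tested, 1 was called, the endothelial marker Pecam1. It averaged 1.46 CPM in SAFB KD and 0.862 CPM in control (0.72, edgeR adjusted p = 0.0187). Without SAFB KD 1, control 2 or control 3 this call was lost (edgeR adjusted p = 0.0623 to 0.189). Cdh5, the other endothelial marker, averaged 8.21 CPM in SAFB KD and 7.19 CPM in control. Its groups did not overlap, but it was not called (0.19, edgeR adjusted p = 0.0816). In bulk RNA, fewer cells of a kind and less RNA per cell cannot be told apart, and the part of the marker shift in the results below was not tested.

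The kinase genes themselves were not called, while Hexim1, the gene of a P-TEFb inhibitor, fell and the elongation factor gene Ell2 rose. Of the 10 genes, 4 were called higher (Ell2, Supt5, Ccnk and Supt6), 1 lower (Hexim1) and 5 were not called. In the background, 41.5% of all tested genes were called, 21.4% higher and 20.1% lower, and 53.3% of tested protein-coding genes were called, so a count of 5 in 10 is close to the background. Their median log2 fold change was 0.03, against 0.01 over all tested genes. By a test against a 2-fold change (edgeR glmTreat), 0 of the 10 were called, nor was any by DESeq2 or limma-voom (0 at an unadjusted p under 0.05 by edgeR), and 136 genes of the whole table were higher and 102 lower beyond 2-fold. Scaling by total counts alone changed the split to 2 called higher and 2 lower, with Cdk12 as the added lower gene. A correction for exonic length gave 5 higher and 1 lower, with Cdk9 and Cdk13 called higher and Ccnk not called.

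**Figure D1:**
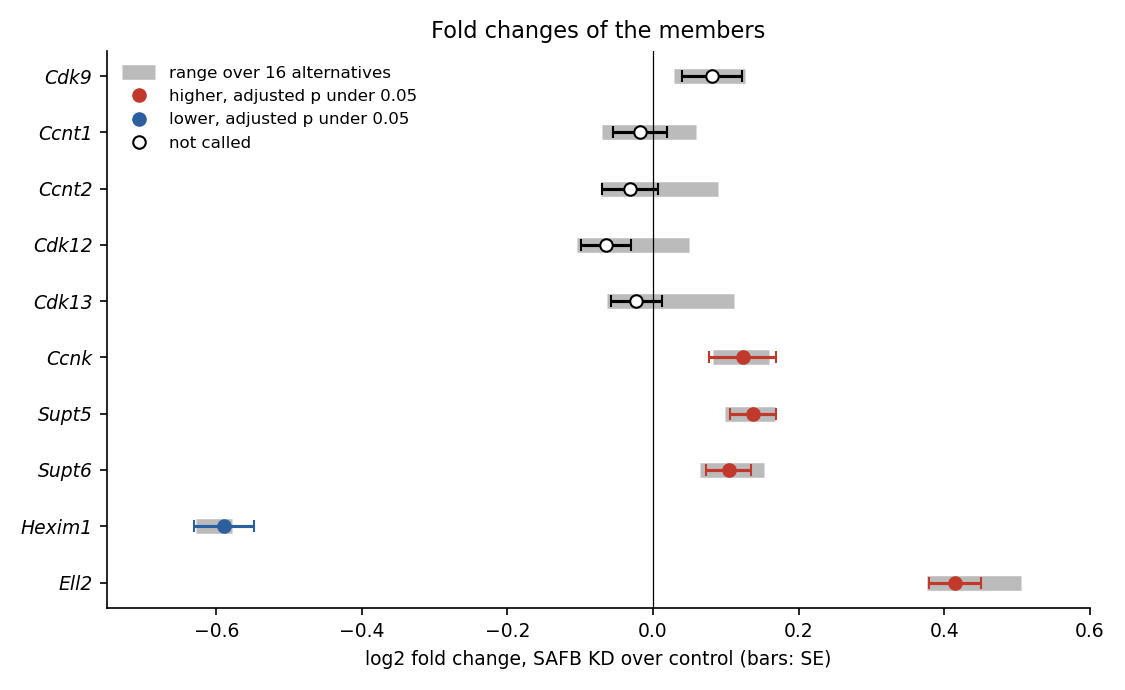
Log2 fold change of each gene in SAFB KD over control (points, with SE as bars, from 3 libraries per group), filled where called, over the range of values from 16 alternative settings (grey). Hexim1 at -0.59 and Ell2 at 0.42 lie apart from the other 8 genes, which lie between -0.06 and 0.14.

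Hexim1 encodes the protein that binds 7SK RNA and blocks the kinase activity of P-TEFb. It had 44.4, 42.6 and 42.5 CPM in SAFB KD, against 65.0, 63.2 and 66.4 CPM in control. The libraries of each group lay close together, and the groups were far apart. Hexim1 was 1.504-fold lower (log2 fold change -0.59, SE 0.041, edgeR adjusted p = 3.37e-15), with 1561 to 2228 counts behind each SAFB KD value and 2231 to 2819 behind each control value. This change was larger than that of 75.2% of tested genes. The call held under all 16 alternative settings, with log2 fold changes of -0.63 to -0.58. Hexim1 (ENSMUSG00000048878.6; GRCm38, chromosome 11, 103116231 to 103119725, plus strand) is a single exon of 3495 bases with no intron, and it is the only one of the 10 genes built so.

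Ell2 encodes an elongation factor of the super elongation complex that raises the rate of polymerase II and suppresses its transient pauses. It had 95.5, 95.5 and 94.4 CPM in SAFB KD, against 74.4, 69.6 and 69.8 CPM in control. The SAFB KD libraries were nearly equal to one another and all lay above the controls. Ell2 was 1.33-fold higher (log2 fold change 0.42, SE 0.036, edgeR adjusted p = 1.27e-12), and the call held under all 16 alternatives (0.38 to 0.51). Ell2 (ENSMUSG00000001542.7; chromosome 13, 75706757 to 75772364, plus strand) has 10 exonic blocks and 9828 exonic bases.

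**Figure D2:**
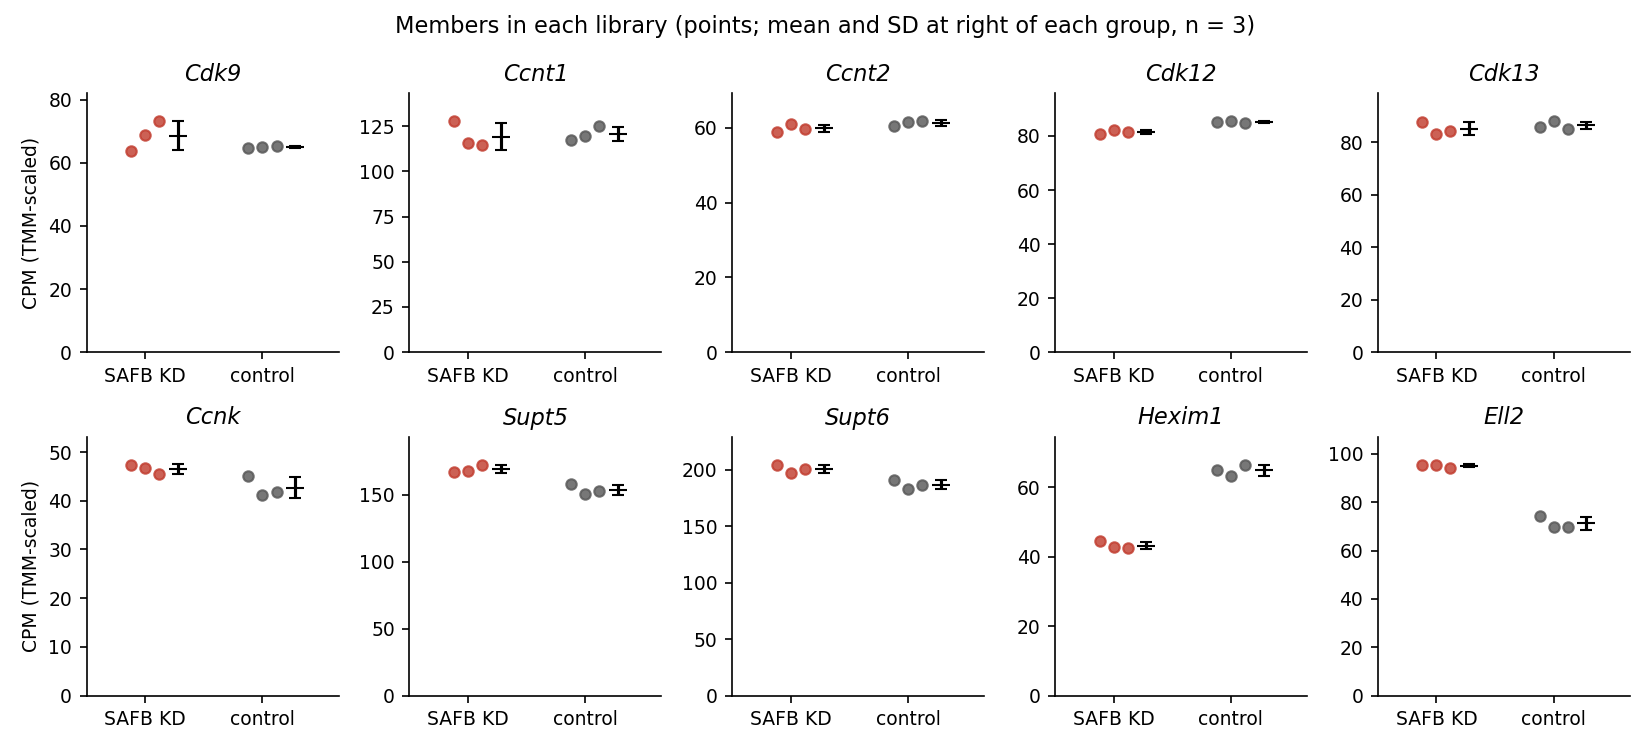
CPM of the 10 genes in each SAFB KD library (red) and control library (grey), with the mean and SD at the right of each group; every axis starts at 0. Hexim1 and Ell2 show the clear gaps between groups, whereas the other genes differ by small steps.

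The promoters of Hexim1 and Ell2 are shown because these were the genes that changed most, in opposite directions. They are RefSeq sequences of GRCm38.p6, from 250 bases before to 50 after the start. For both genes the RefSeq start used lies downstream of the gene start given above. Capitals mark matches on either strand to CCAAT (read as ATTGG on the other strand), to GGGCGG (read as CCGCCC) and to TGACGTCA. The motifs TATAAA and CACGTG, with TGANTCA as the last, were searched too. No 2 matches overlapped in these windows.

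Hexim1, chr11:103116075-103116374, plus strand: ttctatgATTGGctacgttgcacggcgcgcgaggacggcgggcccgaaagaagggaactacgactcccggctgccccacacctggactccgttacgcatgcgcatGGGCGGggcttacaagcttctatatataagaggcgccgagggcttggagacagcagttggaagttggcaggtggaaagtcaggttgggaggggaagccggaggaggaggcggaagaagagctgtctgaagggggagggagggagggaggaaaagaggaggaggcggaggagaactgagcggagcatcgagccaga
Ell2, chr13:75707234-75707533, plus strand: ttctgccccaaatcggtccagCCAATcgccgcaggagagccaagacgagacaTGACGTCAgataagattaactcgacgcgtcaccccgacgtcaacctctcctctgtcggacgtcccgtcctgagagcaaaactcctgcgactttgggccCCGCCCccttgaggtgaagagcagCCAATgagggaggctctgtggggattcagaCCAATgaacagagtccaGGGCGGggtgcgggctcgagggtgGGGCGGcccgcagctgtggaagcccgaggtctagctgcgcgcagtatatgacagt

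The Hexim1 window held 1 CCAAT and 1 GGGCGG, and the Ell2 window held 3 of each and 1 TGACGTCA, the palindrome read by CREB and ATF proteins. Among 32851 promoters of this length, 37.4% held CCAAT, 35.7% GGGCGG and 1.79% TGACGTCA. Neither window held the exact letters TATAAA (13.6% of promoters), CACGTG (7.15%) or TGANTCA (7.81%). The Hexim1 window does hold tataag, which differs from TATAAA in the last letter only. Such near matches were not counted, so the presence of a TATA box was not tested. Both windows had 21 or more CpG pairs, against a median of 7 over all promoters. These matches are letters only, and no factor's binding was measured.

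P-TEFb itself did not pass the test. Cdk9, the kinase gene (chromosome 2, 32705784 to 32713076, minus strand), had 63.8, 68.9 and 73.2 CPM in SAFB KD, against 64.6, 65.1 and 65.4 CPM in control. The SAFB KD libraries were spread on both sides of the controls (log2 fold change 0.08, SE 0.041, edgeR adjusted p = 0.119). Without SAFB KD 1, the lowest of them, Cdk9 was called higher (0.13, adjusted p = 0.0135), as it was with a correction for exonic length (0.10, adjusted p = 0.0495). Ccnt1, the main cyclin partner (chromosome 15, 98538689 to 98570923, minus strand), had 127.8, 115.7 and 114.4 CPM in SAFB KD, against 117.6, 119.6 and 124.9 CPM in control, with the groups mixed (-0.02, SE 0.037, edgeR adjusted p = 0.752). Ccnt2, the alternative cyclin (chromosome 1, 127774164 to 127808061, plus strand), had 59.0 to 61.0 CPM in SAFB KD and 60.4 to 61.7 CPM in control (-0.03, SE 0.039, edgeR adjusted p = 0.558). Neither cyclin T gene was called under any of the 16 alternatives. An antisense gene, 9330020H09Rik, overlaps 695 exonic bases of Ccnt1 and held 95 to 157 counts per library.

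CDK12 and CDK13, close paralogs, were near their control level and their shared cyclin was slightly above it. Cdk12 (chromosome 11, 98203059 to 98278504, plus strand) had 80.7, 82.0 and 81.5 CPM in SAFB KD, against 84.99, 85.5 and 84.9 CPM in control. All SAFB KD values were under all control values, yet the difference did not pass the test (-0.06, SE 0.034, edgeR adjusted p = 0.142). With total-count scaling it was called lower (-0.10, adjusted p = 0.0155), and with a correction for exonic length its sign turned (0.05 at most). Cdk13 (chromosome 13, 17710315 to 17805097, minus strand) had 87.9, 83.0 and 84.5 CPM in SAFB KD, against 86.1, 88.1 and 85.3 CPM in control, and the groups overlapped (-0.02, SE 0.035, edgeR adjusted p = 0.653). The same length correction turned Cdk13 to 0.11 and a call as higher (adjusted p = 0.0105), so its direction depends on that setting. Cdk13 has the greatest exonic length of the 10 genes, 13456 bases, and Cdk12 has 11730.

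Ccnk, which encodes cyclin K (chromosome 12, 108179579 to 108203359, plus strand), had 47.4, 46.8 and 45.5 CPM in SAFB KD, against 45.2, 41.2 and 41.8 CPM in control. The groups did not overlap, but the lowest SAFB KD library and the highest control were nearly equal. Ccnk was 1.09-fold higher (0.12, SE 0.045, edgeR adjusted p = 0.0272). This call was lost in 8 of 16 alternatives, among them DESeq2 (adjusted p = 0.07) and the fits without control 2 (adjusted p = 0.232), control 3 (0.129), SAFB KD 1 (0.0871) or SAFB KD 2 (0.0795).

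The genes of the general elongation factors were a little higher. Supt5 (chromosome 7, 28314891 to 28338746, minus strand) encodes SPT5, the large subunit of DSIF that P-TEFb converts from a pausing into an elongation factor. It had 167.1, 167.5 and 172.3 CPM in SAFB KD, against 157.7, 150.3 and 152.6 CPM in control. Supt5 was 1.10-fold higher (0.14, SE 0.032, edgeR adjusted p = 3.74e-04) and was called under all 16 alternatives. Supt6 (chromosome 11, 78206746 to 78245987, minus strand) encodes SPT6, a histone chaperone that travels with the elongating polymerase. It had 204.3, 197.3 and 200.5 CPM in SAFB KD, against 191.0, 183.0 and 186.2 CPM in control, also without overlap. Supt6 was 1.07-fold higher (0.10, SE 0.031, edgeR adjusted p = 5.58e-03), a call lost with total-count scaling (adjusted p = 0.109) and without control 2 (adjusted p = 0.111). Its exons share 242 bases with Sdf2 on the other strand. In all, the groups did not overlap for 6 of the 10 genes (Cdk12, Ccnk, Supt5, Supt6, Hexim1 and Ell2), against 49.0% of all tested genes and 60.0% of tested protein-coding genes.

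Levels between genes were compared per length, as TPM (reads per base, scaled to a fixed total in each library) over each gene's exonic length. Supt5 (92.1 ± 1.70 TPM in SAFB KD, 88.9 ± 4.61 TPM in control) and Supt6 (88.9 ± 3.17 and 87.8 ± 4.18 TPM) were the most abundant in both groups, and their ranges overlapped. Hexim1 stood at rank 6 in SAFB KD with 38.8 ± 1.67 TPM, where its range overlapped that of Ccnt1 (41.0 ± 3.32 TPM), and at rank 3 in control with 61.9 ± 1.81 TPM, above Cdk9 without overlap. Ell2 stood clear of Cdk12 in SAFB KD, at 30.4 ± 0.671 against 21.8 ± 0.229 TPM, and overlapped it in control, at 24.2 ± 1.62 against 24.2 ± 0.796 TPM. Ccnk and Cdk9 overlapped in both groups, at 48.1 and 46.7 TPM in SAFB KD and 46.9 and 47.1 TPM in control. Cdk13 (19.9 ± 0.955 TPM in SAFB KD, 21.5 ± 0.865 TPM in control) and Ccnt2 (15.2 ± 0.159 and 16.6 ± 0.367 TPM) were the lowest. TPM has no TMM scaling and counts all annotated exons as transcribed, so it serves here for the order alone.

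**Figure D3:**
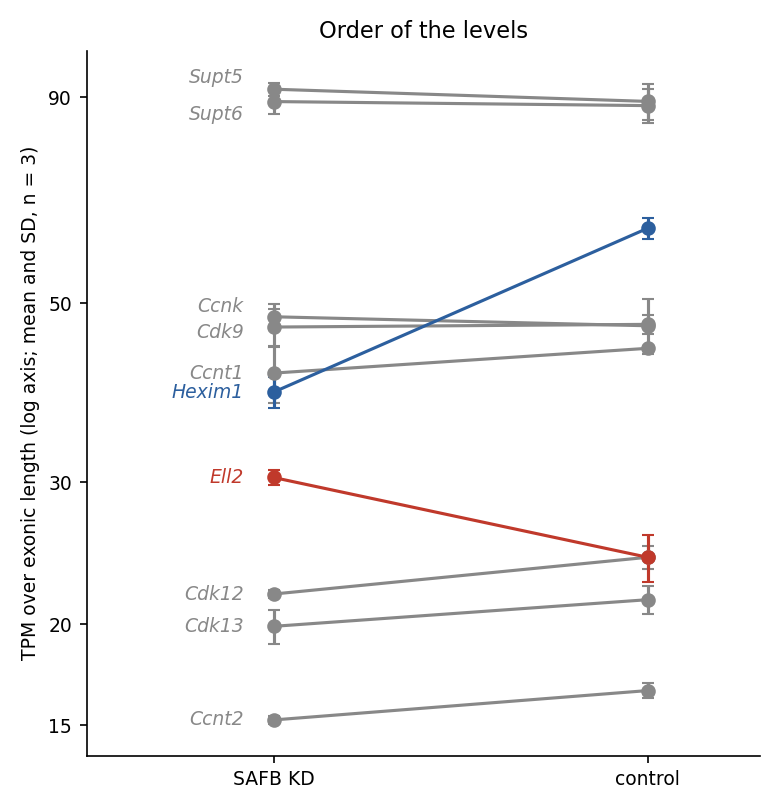
TPM of the 10 genes in SAFB KD (left) and control (right) on a log axis, as mean and SD of 3 libraries. Hexim1 (blue) lies at 38.8 TPM in SAFB KD and 61.9 TPM in control, and Ell2 (red) lies at 30.4 and 24.2 TPM.

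Ratios of partners were then formed within each library, where scaling cancels. The ratio of Hexim1 to Cdk9, an inhibitor against its kinase, in reads per exonic base, was 0.918, 0.816 and 0.766 in SAFB KD, against 1.33, 1.28 and 1.34 in control. The groups lay well apart, with a 0.632-fold ratio (exact permutation test, 2-sided, p = 0.1, adjusted p = 0.2 over 6 ratios). With 3 libraries against 3, a p of 0.1 is the smallest this test can give, so no ratio could pass. Ccnk to Cdk12 plus Cdk13 was 1.16, 1.17 and 1.13 in SAFB KD, against 1.09, 0.978 and 1.01 in control, and Ell2 to its paralog Ell was 1.55, 1.60 and 1.497 in SAFB KD, against 1.37, 1.36 and 1.43 in control. Both were without overlap and reached the same smallest p. The ratio of Cdk12 to Cdk13 averaged 1.10 ± 0.041 in SAFB KD and 1.13 ± 0.015 in control (exact permutation p = 0.3), that of Ccnt1 to Ccnt2 2.69 ± 0.202 and 2.66 ± 0.061 (exact permutation p = 1.0), and that of Ccnt1 plus Ccnt2 to Cdk9 1.21 ± 0.134 and 1.29 ± 0.025 (exact permutation p = 0.4; SD, n = 3 each). These 3 ratios overlapped between groups.

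**Figure D4:**
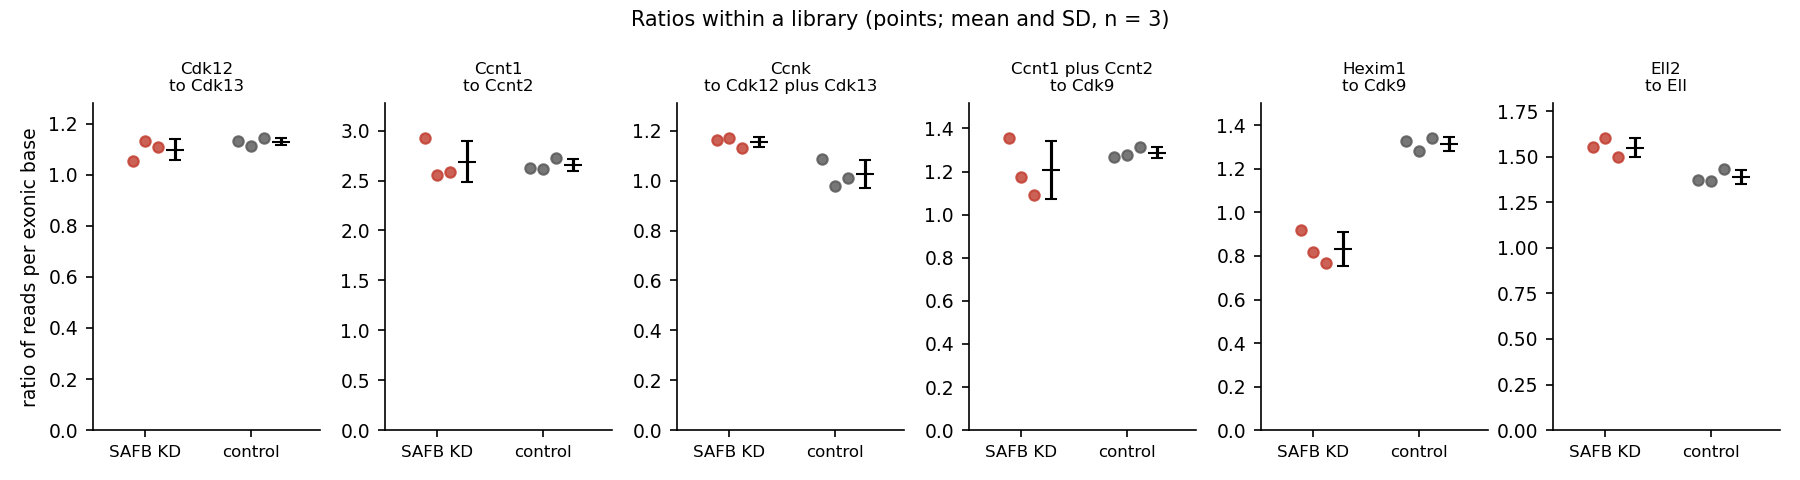
Ratios of reads per exonic base within each SAFB KD library (red) and control library (grey), with mean and SD of 3 libraries; every axis starts at 0. Hexim1 to Cdk9 shows the widest gap, with means of 0.833 in SAFB KD and 1.32 in control.

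The other protein genes of the 7SK particle were lower too. Hexim2, the paralog of Hexim1, had 5.71, 6.63 and 6.52 CPM in SAFB KD, against 9.20, 9.11 and 7.89 CPM in control (log2 fold change -0.47, edgeR adjusted p = 5.88e-05). Larp7, whose protein binds the end of 7SK RNA and keeps it stable, averaged 56.2 ± 0.914 CPM in SAFB KD and 66.8 ± 0.917 CPM in control (-0.25, adjusted p = 8.97e-07). Mepce, whose protein caps 7SK RNA, averaged 29.97 ± 1.02 CPM in SAFB KD and 35.1 ± 1.91 CPM in control (-0.23, adjusted p = 3.43e-04; SD, n = 3, edgeR for each). Each of these genes was lower in 3 of 3 SAFB KD libraries than in every control. 7SK RNA itself carries no poly(A) tail and was not analysed here.

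Factors that free P-TEFb from the particle or recruit it moved both ways. Jmjd6, which acts on P-TEFb release, was higher (0.49), as were Ppm1g, a phosphatase known to release P-TEFb (0.19), and the bromodomain gene Brd2 (0.17). Srsf2, a splicing factor that also sits on the 7SK particle, was lower (-0.28). Of the 12 genes listed for the 7SK particle and P-TEFb recruitment besides Hexim1, 3 were called higher, 6 lower and 3 not, with a median of -0.06.

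In the super elongation complex, Ell was called higher like Ell2, and other members moved both ways. Ell averaged 19.4 ± 0.529 CPM in SAFB KD and 16.2 ± 0.878 CPM in control (0.26, edgeR adjusted p = 8.89e-04; SD, n = 3), and the ELL-associated Eaf1 was also higher (0.22). The YEATS-domain genes Mllt1, which encodes ENL (-0.46), and Mllt3, which encodes AF9 (-0.30), were lower. Aff1 was at 74.2 CPM in SAFB KD and 74.1 CPM in control, while Aff4, the usual scaffold, was called lower at -0.11 but turned to 0.02 and lost its call with the length correction. Ice2 was lower (-0.28) and Zc3h8 higher (0.38); both belong to the little elongation complex, which serves small nuclear RNA genes. Of 13 genes listed besides Ell2, 11 were tested, of which 3 were called higher, 5 lower and 3 not (median -0.11). This is a called share of 72.7%, against 53.3% of tested protein-coding genes. Aff2 and Ell3 had no read, and Aff3 and Eaf2 averaged under 1 CPM in each group and were not called.

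The pausing and PAF complexes, next to SPT5 in the elongation machinery, were nearly flat. Of 5 NELF and DSIF genes besides Supt5, 1 was called, Nelfb (0.13). Its call was lost without SAFB KD 3, control 2 or control 3 (edgeR adjusted p = 0.0648 to 0.15). With total counts only, Nelfb lost its call too (0.085, edgeR adjusted p = 0.115), and Nelfa was called lower (-0.127, edgeR adjusted p = 0.0453). Supt4a, which encodes the small DSIF partner of SPT5, averaged 30.8 CPM in SAFB KD and 29.3 CPM in control (0.07, edgeR adjusted p = 0.299). Of 6 PAF complex genes, 0 were called by edgeR (0 at an unadjusted p under 0.05), with log2 fold changes of -0.08 to 0.08, and the 5 with the smallest adjusted p were not called by DESeq2 or limma-voom either. Wdr61 was called higher without control 2 (0.11, adjusted p = 0.0456) and with the length correction (0.10, adjusted p = 0.0457). Of 8 genes listed for SPT6 partners and histone chaperones, 3 were called lower and 1 higher. This count of 4 in 8 is close to the background, where 53.3% of tested protein-coding genes were called. Iws1, which binds SPT6 directly, averaged 63.6 CPM in SAFB KD and 78.2 CPM in control (-0.29), and Setd2, the H3K36 methyltransferase that follows the polymerase, 123.6 CPM in SAFB KD and 155.3 CPM in control (-0.33). The H3K36 methyltransferase gene Nsd3 was also lower (-0.22, though not called with the length correction) and the FACT subunit gene Ssrp1 was higher (0.11, not called with total counts).

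**Figure D5:**
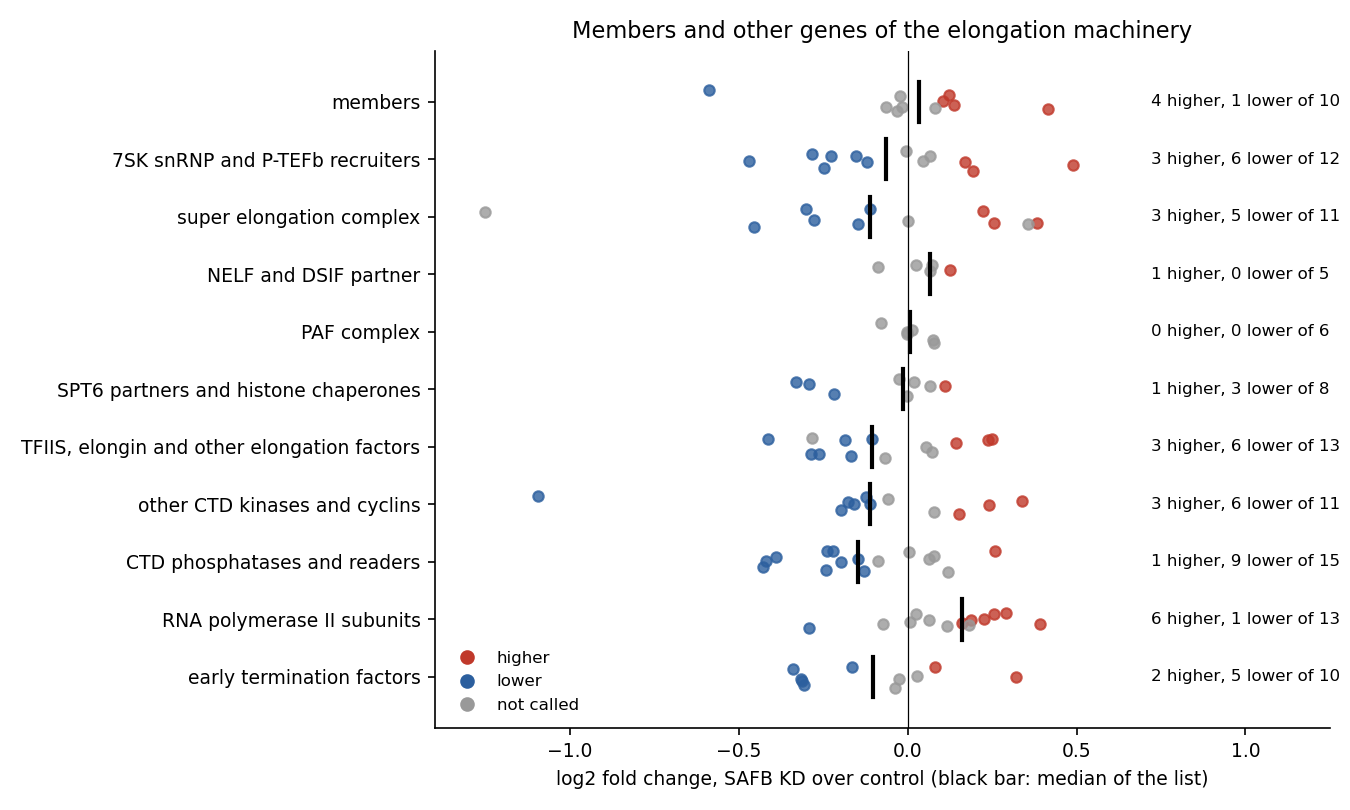
Log2 fold change in SAFB KD over control of each tested gene (points), by list, coloured by call, with the median of the list as a black bar. The PAF complex lies within 0.08 of 0, and the medians run from -0.15 for the tail phosphatases and readers to 0.16 for the polymerase subunits.

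The tail of polymerase II is phosphorylated by further kinases and cleared by phosphatases. In the lists of these genes, with partner subunits and readers, more were called lower than higher. Over all tested genes, 21.4% were called higher and 20.1% lower. The split over all partner lists moved with the length correction, as given below, and these lists were not counted apart under it. Cdk19, which encodes a Mediator kinase, had 20.1, 19.9 and 20.9 CPM in SAFB KD, against 43.7, 44.6 and 41.7 CPM in control. It was 2.14-fold lower (log2 fold change -1.10, SE 0.051, edgeR adjusted p = 1.71e-20), the largest called change among these lists, but it was not called beyond 2-fold. Its paralog Cdk8 was higher, at 85.3 ± 1.11 CPM in SAFB KD and 67.5 ± 0.391 CPM in control (0.34, edgeR adjusted p = 2.15e-10; SD, n = 3). Of 11 genes for other tail kinases, their cyclins and partner subunits, 3 were called higher and 6 lower (median -0.11). Med13 (-0.20) and Med12 (-0.18) of the Mediator kinase module were lower, and Ccnh, the cyclin gene of the TFIIH kinase, was higher (0.24). Of 15 genes for tail phosphatases and tail-binding readers, 1 was higher and 9 lower (median -0.15). The called shares were 81.8% and 66.7%, against 53.3% of tested protein-coding genes. The small phosphatase genes Ctdspl2 (-0.43), Ctdspl (-0.42) and Ctdsp2 (-0.39) were lower, as were the reader genes Rprd1b and Rprd2 (-0.24 each).

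Among the polymerase subunits themselves, Polr2a, which encodes the subunit that carries the tail, was the only one called lower. It had 268.4, 247.8 and 243.7 CPM in SAFB KD, against 337.6, 303.2 and 288.3 CPM in control (-0.29, edgeR adjusted p = 5.37e-08). The groups did not overlap, although the controls were widely spread. Polr2h (0.39), Polr2g (0.29), Polr2c (0.26) and Polr2e (0.23) were higher. Of 13 subunit genes, 6 were called higher and 1 lower (median 0.16). In all 53.8% were called, close to the 53.3% of tested protein-coding genes.

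TFIIS, elongin and other elongation factors were mixed, with 3 of 13 higher and 6 lower (median -0.11). Called genes made up 69.2%, against 53.3% of tested protein-coding genes. Tcea1, which encodes the TFIIS that rescues backtracked polymerase, was higher (0.25), as was the elongin subunit gene Eloc (0.24). Tceanc2 (-0.41), Htatsf1 (-0.29) and Phf3, whose protein binds the phosphorylated tail (-0.26), were lower. Of 10 factors that act in early termination or decay of short transcripts, 2 were higher and 5 lower (median -0.10). Here 70.0% were called, against the same 53.3%. Ncbp1, the large subunit gene of the nuclear cap-binding complex, was higher at 111.4 ± 0.539 CPM in SAFB KD and 89.2 ± 4.11 CPM in control (0.32), whereas its small subunit gene Ncbp2 was lower at 87.9 ± 3.30 CPM in SAFB KD and 109.3 ± 2.59 CPM in control (-0.32; SD, n = 3). Srrt, which joins the cap to RNA decay (-0.31), Zc3h4, a restrictor of early transcription (-0.31), and the decapping gene Dcp2 (-0.34) were lower.

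Over all 10 lists of partners, 104 of 106 genes were tested, 23 were called higher, 41 lower and 40 not. The called share was 61.5%, against 41.5% of all tested genes and 53.3% of tested protein-coding genes. The median was -0.01, against 0.01 over all tested genes. With the length correction the split was 31 higher and 35 lower. Exonic length thus moves with these counts, and its part in them was not tested further.

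Transcripts known to depend on these kinases gave no common direction. Of 4 DNA repair genes known to need CDK12 in human cells, Brca1 had 65.0, 63.7 and 66.5 CPM in SAFB KD, against 95.6, 98.1 and 102.4 CPM in control (-0.60, edgeR adjusted p = 4.89e-17). Fanci was also lower (-0.28), Fancd2 was higher (0.14, not called with total counts or without SAFB KD 2 or control 3), and Atr averaged 55.4 CPM in SAFB KD and 54.0 CPM in control. Of 6 short-lived transcripts known to need CDK9, Myc had 176.0, 195.2 and 192.6 CPM in SAFB KD, against 107.2, 99.2 and 94.9 CPM in control (0.90, edgeR adjusted p = 9.86e-22). Jun and Junb were higher by a small step (0.14 each), Fos was lower at 13.7 CPM in SAFB KD and 19.9 CPM in control (-0.54), and Mcl1 and Ier2 were not called. The kinase activities were not measured.

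The genes most like Hexim1 and Ell2 in their pattern over the 6 libraries were sought by the root mean square difference of centred log2 CPM. The 8632 candidates were protein-coding genes that averaged 10 CPM or more. Genes of any list used here and genes with clone names were left out, so no listed gene could be found. For Hexim1 these were Atxn7l3b (0.0154), Myo10 (0.023) and Shroom4 (0.0244). For Ell2 they were Ctsa (0.01), Cdkn1a (0.0101) and Ppie (0.0145). Atxn7l3b averaged 118.1 CPM in SAFB KD and 176.9 CPM in control, and Cdkn1a 143.2 CPM in SAFB KD and 106.3 CPM in control. Log2 fold changes were -0.58 to -0.55 for the genes like Hexim1 and 0.41 to 0.44 for those like Ell2. With 2 groups the measure mainly finds genes of a like fold change, and shared regulation was not tested.

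SAFB proteins are known to bind purine-rich RNA, so the motif GAAGAA was counted in the longest annotated spliced transcript of each gene, on the transcript strand and with overlapping matches counted. All but Ccnt2 (0.131 per kilobase) and Cdk9 (none) held it more densely than the median of tested protein-coding genes, 0.69 per kilobase. Supt5 had 1.86, Supt6 1.70, Ccnk and Hexim1 1.43 each and Ell2 1.17 per kilobase. Of the genes not called, Ccnt1 had 1.08, Cdk12 1.01 and Cdk13 0.956 per kilobase. These densities are a description of 10 genes with no test. Introns were not searched, and binding was not measured in these files.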

How the data were processed

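Poly(A)+ RNA of 6 libraries (3 SAFB KD, 3 control, called biological replicates by the series text) was sequenced with strand kept. The files held counts, whole reads per gene, which the authors made by aligning trimmed reads to GRCm38 with STAR 2.7.9a. That the column held reverse-stranded counts is inferred from the study's methods. Such counting drops reads shared by genes that overlap on the same strand or by near-identical copies, which limits paralogs and such genes. If that inference holds, overlaps on opposite strands, as at Ccnt1 and Supt6, are told apart by strand. The submitters' processing notes also name deepTools 3.5.1. Identifiers were matched to GENCODE M21 of GRCm38 (54495 matched, 37 did not).

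A minimum of 10 reads summed over all 6 libraries removed 35080 genes, and the 19452 left were tested with edgeR 4.0.16 (TMM, quasi-likelihood, 2-sided, Benjamini-Hochberg over all of them, R 4.3.3), with DESeq2 1.42.0 and limma 3.58.1 (voom) as alternatives, beside other scalings, filters, an exonic length offset, a replicate block and fits without each library. SE was set so that the fold change over SE gives the test's F. The script was tested on simulated data. The biological coefficient of variation was 3.49%. No replicate pair was a duplicate: chi-square divided by its degrees of freedom was 3.92 to 19.6, above the value of sampling noise. Ratios used exact permutation tests in scipy 1.17.1. Named genes were the 10 genes, the targets, direct partners, the 5 smallest adjusted p of each list and the 3 genes most alike in pattern to the 2 largest changes. A listed gene is not reported by name here. The members and lists were chosen with earlier results of these data known. siRNA sequences came from the study's oligo list, and promoters from RefSeq, which matched all 10 genes.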

Additional observations from a re-analysis of the deposited data

How the results depend on the processing

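Of 160 results for the 10 genes (each under 16 alternatives), 144 kept their side of the threshold, 10 lost a call, and the other 6 gained one, of which 2 (Cdk13) also changed sign. The sign changed in 10 of the 160: Ccnt1 (4), Ccnt2 (2) and Cdk12 (2), not called in those fits, and Cdk13 (2). Cdk13 turned to 0.11 with the exonic length offset and with the replicate block plus that offset. Aff4 turned to 0.023 under both. Genes called among the 10 numbered 5, and 3 to 5 when 1 library was left out, of which 2 to 4 were higher. The lowest values came without control 2, where Ccnk and Supt6 lost their calls. With the exonic length offset 6 were called. With total counts only, 2 were called higher and 2 lower. Hexim1, Ell2 and Supt5 kept their calls under all 16.

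Samples of the same number showed little shared deviation (r 0.0534, 0.0147 and -0.00111), and those of different number gave r of -0.0406 to 0.0255. With 3 libraries a group this cannot tell whether samples were prepared in pairs. With the replicate block, 5 of the 10 genes were called, and 8117 against 8064 over all genes. Scaling cancels in the ratios. Without 1 library, the log2 difference of Hexim1 to Cdk9 was -0.73 to -0.60. The limits are 3 libraries a group, small changes (at most 1.504-fold for the 10 genes), and counts that mix changes in synthesis and decay.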
